A study of Mus musculus with 40 samples.

Results

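Hbb-bs and Hbb-bt are the adult beta-globin genes of the mouse single haplotype. They were chosen by name as 2 of the 6 adult globin genes counted, and were followed mainly in the 20 single-haplotype libraries of 40. All libraries were total RNA from Ter119+ cells, bead-isolated on an antigen of the red cell lineage, of mice labelled C57BL/6J whose age the sources used here do not give. The 4 single-haplotype groups of 5 libraries were wild type (WT) bone marrow, Hbb th3/+ bone marrow, WT spleen and Hbb th3/+ spleen, and 10 mice each gave both tissues. Diffuse-haplotype mice, which carry Hbb-b1 and Hbb-b2 in place of this pair, formed the 4 other groups. The study asked how far the haplotypes alter the severity of beta-thalassemia.

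Adult haemoglobin is a tetramer of alpha-globin and beta-globin chains around haem, and red cell precursors fill themselves with the messages for both. The Hbb th3 allele is a deletion of the adult beta-globin genes, so a heterozygote transcribes adult beta-globin from the other chromosome alone, and alpha chains without a partner damage the cell. Reads in introns come mostly from transcripts not yet spliced, whereas reads in exons come mostly from finished messenger RNA, which is long-lived in these cells. Every cell of a th3/+ mouse carries the deletion, and Ter119+ fractions mix several stages of maturation. In such bulk fractions, fewer cells of one stage and less RNA per cell cannot be told apart.

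In GENCODE M21 (mm10), Hbb-bs (ENSMUSG00000052305.6) lies at chr7:103826534-103828096 and Hbb-bt (ENSMUSG00000073940.3) at chr7:103812524-103813996, both on the minus strand. Each has 3 exons and 2 introns. The introns total 767 bases in Hbb-bs and 770 bases in Hbb-bt, and the spliced transcripts used here are 628 and 703 bases long. Their coding sequences of 441 bases (stop codon left out) differ at 1 position, in exon 3. It is shown because it is the only base of the coding region by which a read can be given to either gene. The capital marks it, C417T counted from 1 at the A of the start codon, with the Hbb-bs base first. Codon 139 is GCC in Hbb-bs and GCT in Hbb-bt, which encode the same amino acid. The lines below give GENCODE transcript sequence on the gene strand, at chr7:103826672-103826712 for Hbb-bs and chr7:103812663-103812703 for Hbb-bt.
Hbb-bs: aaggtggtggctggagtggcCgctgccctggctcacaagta
Hbb-bt: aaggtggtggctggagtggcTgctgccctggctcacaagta

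The 3 prime UTRs were 70.4% identical over 135 aligned columns, against 99.8% in the coding sequence. Of all 75-base windows of the transcript, 64.3% in Hbb-bs and 56.6% in Hbb-bt occurred letter for letter in the other gene. With 150-base windows the shares were 58.7% and 50.7%. The read length is not given in the sources used here, so the windows describe the sequences and not the counting.

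Both promoters are shown because the exon counts of both genes per alpha exon count were lower in th3/+ mice in both tissues. Each line is the 120 bases before the RefSeq transcription start (GRCm38.p6, minus strand), chr7:103827929-103828048 for Hbb-bs and chr7:103813924-103814043 for Hbb-bt. Capitals mark 3 motifs searched on both strands, long known from beta-globin promoters. The first is CACCC of the box of that name, the second is CCAAT of the box of that name, and the third is ATATAA of a TATA-like element.
Hbb-bs: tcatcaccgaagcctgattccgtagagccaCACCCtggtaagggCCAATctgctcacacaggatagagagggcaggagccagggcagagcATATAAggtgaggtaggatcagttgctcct
Hbb-bt: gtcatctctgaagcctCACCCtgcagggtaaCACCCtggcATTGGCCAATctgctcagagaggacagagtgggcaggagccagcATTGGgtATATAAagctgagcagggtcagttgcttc

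The windows were 75% identical over 124 aligned columns. Hbb-bs held CACCC at 90 bases before the start, then CCAAT at 76 bases and ATATAA at 30 bases, 1 match each. Hbb-bt held CACCC at 104 and 89 bases, then CCAAT at 75 bases, with its reverse complement ATTGG at 80 and 36 bases, and ATATAA at 29 bases. The CCAAT and the ATTGG at 80 bases adjoin without sharing a base. Of 32851 promoter windows of the same length, 31.7% held CACCC on either strand, 21.3% held CCAAT and 4.47% held ATATAA. A match is a description of these letters only. GENCODE starts its Hbb-bt transcript within this window, upstream of the RefSeq start.

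Counts were deep. The single-haplotype libraries held 11613844 to 25756760 globin exon counts each. Uniquely assigned exon counts ranged from 3918454 to 12283799 for Hbb-bs and from 1089791 to 2990773 for Hbb-bt, and intron counts from 1473 to 7265 and from 612 to 2451. Spread between mice therefore exceeded counting error for the exon values. The deposited rows carry a mouse code and no replicate number, so the library numbers here only name mice, with the same number for a mouse in both tissues. Only globin counts were listed, so the Ter119+ label could be checked against no other marker. All 5 th3/+ mice of this haplotype and 1 WT mouse (number 3) have codes of one letter series, and the other 4 WT mice have codes of another. What the letters stand for is not stated. The spleen libraries of WT mice 4 and 5 stood apart in their introns, with alpha intron counts at 0.0538% and 0.0506% of alpha exon counts against 0.106% to 0.146% in the other 3. Spleen intron results of Hbb-bs and Hbb-bt are given with and without them.

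Hbb-bs exon counts were lower relative to alpha exon counts in th3/+ mice in both tissues, by 57.0% in bone marrow and 40.9% in spleen. Alpha exon counts pool Hba-a1, Hba-a2 and the column of alpha reads given to neither, and alpha chains are the partners of beta-globin. In WT bone marrow the 5 libraries gave 1.99, 1.67, 1.76, 1.38 and 2.02 Hbb-bs counts per alpha count (1.76 ± 0.260, SD, n = 5). In th3/+ bone marrow they gave 0.707, 0.825, 0.745, 0.876 and 0.641 (0.759 ± 0.0935, SD, n = 5). Every th3/+ library lay below every WT library there. In spleen the WT libraries gave 1.55, 1.22, 1.40, 1.33 and 1.52 (1.40 ± 0.136, SD, n = 5). The th3/+ spleen libraries gave 0.908, 0.821, 0.856, 0.821 and 0.740 (0.829 ± 0.0613, SD, n = 5). Again no th3/+ library reached the lowest WT library.

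Hbb-bt, the other gene of the pair, was lower by 50.1% in bone marrow and 37.9% in spleen. Its WT bone marrow libraries gave 0.429, 0.407, 0.439, 0.349 and 0.420 unique exon counts per alpha exon count (0.409 ± 0.0356, SD, n = 5). The th3/+ bone marrow libraries gave 0.197, 0.226, 0.198, 0.216 and 0.184 (0.204 ± 0.0168, SD, n = 5). The highest th3/+ value stood far under the lowest WT value. In spleen the WT libraries gave 0.394, 0.320, 0.365, 0.319 and 0.380 (0.356 ± 0.0344, SD, n = 5). The th3/+ libraries there gave 0.233, 0.228, 0.221, 0.221 and 0.200 (0.221 ± 0.0128, SD, n = 5), all of them under the WT range.

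**Figure D1:**
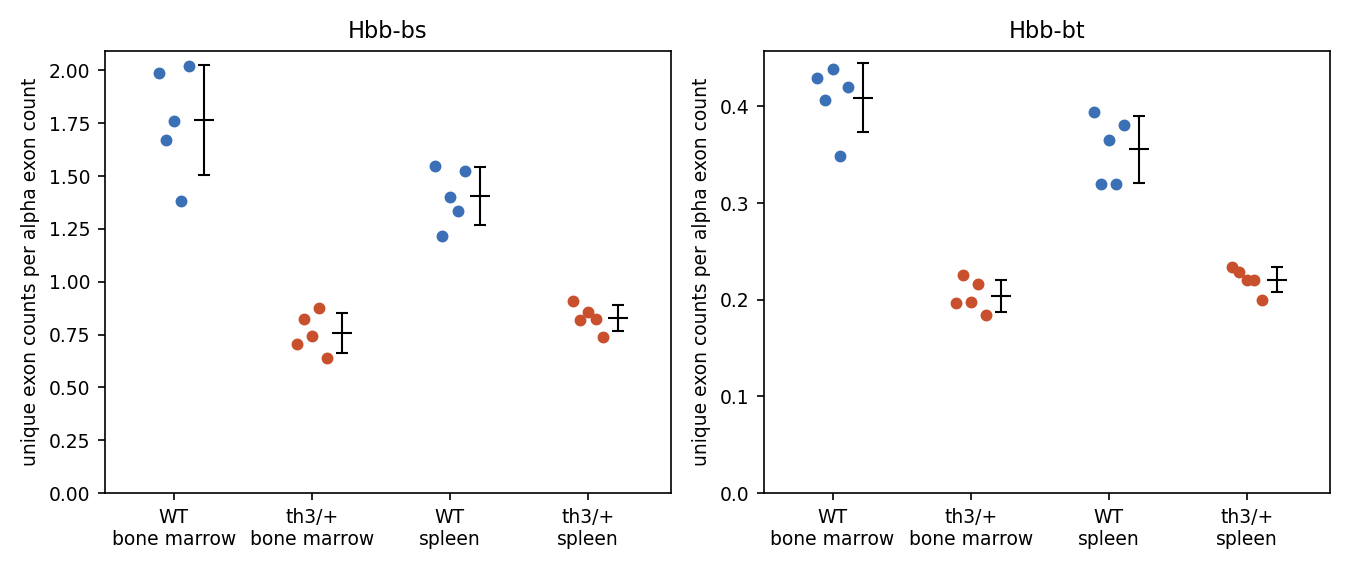
Unique exon counts per alpha exon count of Hbb-bs (left) and Hbb-bt (right), with 1 point per library and the mean ± SD beside each group of 5. The th3/+ libraries (orange) lie below all WT libraries (blue) of the same tissue for both genes, and WT bone marrow has the highest mean of the 4 groups.

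The log2 differences between th3/+ and WT, from edgeR's quasi-likelihood test on counts with the alpha exon sum as library size, were -1.22 (SE 0.10, adjusted p = 4.61e-09) in bone marrow and -0.76 (SE 0.10, adjusted p = 1.21e-06) in spleen for Hbb-bs. For Hbb-bt the same test gave -1.002 (SE 0.07, adjusted p = 1.37e-09) and -0.69 (SE 0.07, adjusted p = 1.50e-07). Exact permutation tests within each tissue gave adjusted p = 0.00794 for each of these 4 differences. Both genes were thus among the features called lower, which were 56.2% of the 16 features tested in bone marrow and 50% in spleen, a set that consists of the globin genes and their shared reads only. The 16 include the alpha exon columns that make up the scale, and the introns and shared reads of this pair. The share called is therefore no neutral baseline. Alpha sums set the scale of these values. With the summed exon counts of all globin genes as the scale, which moved the median of the 16 features by 0.74 in bone marrow and 0.47 in spleen, the differences were -0.48 and -0.28 for Hbb-bs and -0.27 and -0.21 for Hbb-bt, still called by edgeR with adjusted p of at most 0.00131. The TMM scaling of edgeR, which assumes that most features do not change, moved that median by 0.90 and 0.52, and none of the 4 differences was called under it (-0.33, -0.27, -0.13 and -0.18, adjusted p from 0.205 to 0.662). Within the letter series of codes that includes all th3/+ mice, where 1 WT mouse allows no test, the Hbb-bs differences were -1.22 and -0.76 and the Hbb-bt differences -1.11 and -0.73.

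The reads that could not be given to either gene moved the same way. Hbb-single exon counts, taken to be reads shared by the pair, differed by -1.09 (SE 0.12, adjusted p = 1.50e-07) in bone marrow and by -0.90 (SE 0.12, adjusted p = 1.21e-06) in spleen on the log2 scale in edgeR's test. Intron counts set against alpha exon counts were also lower for each gene by edgeR, with differences of -1.51 (SE 0.25, adjusted p = 2.35e-05) and -0.65 (SE 0.24, adjusted p = 0.0218) for Hbb-bs. For Hbb-bt the intron differences were -1.44 (SE 0.24, adjusted p = 2.87e-05) and -0.62 (SE 0.24, adjusted p = 0.0241) in the same edgeR fit. Without WT spleen libraries 4 and 5 the spleen intron differences were -1.01 for Hbb-bs and -0.98 for Hbb-bt (edgeR, adjusted p = 9.42e-05 and 8.35e-05), a move of over 1.5 times. The exact permutation test of the same ratios over all libraries did not call them, with adjusted p = 0.0556 for each gene in bone marrow and 0.222 in spleen. In bone marrow every th3/+ library lay below every WT library in both ratios. The exact p there was thus 0.00794, the smallest that 5 against 5 can give, and only the adjustment took it over the threshold.

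Set against alpha introns instead, Hbb-bs introns in th3/+ mice stood at 0.495 of WT in bone marrow and 0.446 in spleen, and Hbb-bt introns at 0.528 and 0.456. Hbb-bs intron counts per alpha intron count were 0.496, 0.557, 0.486, 0.530 and 0.476 in WT bone marrow and 0.260, 0.236, 0.226, 0.263 and 0.276 in th3/+ bone marrow. The ranges were far apart. Spleen gave 0.540, 0.556, 0.563, 0.599 and 0.650 in WT and 0.251, 0.234, 0.243, 0.287 and 0.282 in th3/+. There too no value was shared. Hbb-bs introns differed by -1.01 (95% interval -1.17 to -0.85) in bone marrow and by -1.17 (-1.35 to -0.98) in spleen on the log2 scale, each with p = 0.00794, the smallest that an exact permutation test of 5 against 5 can give, and adjusted p = 0.0278 over 14 tests.

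Hbb-bt intron counts per alpha intron count were 0.173, 0.188, 0.182, 0.188 and 0.175 in WT bone marrow and 0.108, 0.0874, 0.0891, 0.0933 and 0.102 in th3/+ bone marrow. The spleen values were 0.185, 0.197, 0.211, 0.228 and 0.221 in WT and 0.106, 0.0968, 0.0860, 0.0926 and 0.0932 in th3/+. The genotypes did not overlap in either tissue. On the log2 scale Hbb-bt introns differed by -0.92 in bone marrow (95% interval -1.07 to -0.77) and by -1.13 in spleen (-1.30 to -0.94), with an adjusted p of 0.0278 in both exact permutation tests. Without the WT spleen libraries 4 and 5 the spleen differences were -1.10 for Hbb-bs and -1.06 for Hbb-bt, and an exact test of 5 against 3, whose smallest p is 0.0179, gave adjusted p = 0.0556 for each.

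**Figure D2:**
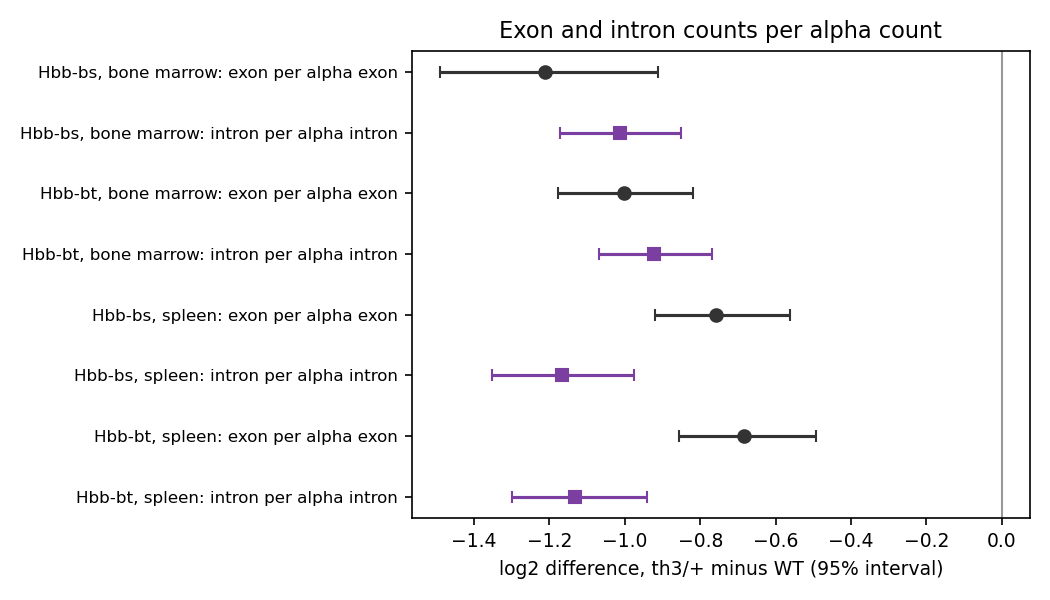
Log2 difference between th3/+ and WT libraries (n = 5 each) of exon counts per alpha exon count (circles) and intron counts per alpha intron count (squares), with 95% intervals from inverting the exact permutation test. In spleen the exon differences of -0.76 and -0.68 lie nearer to 0 than the intron differences of -1.17 and -1.13, whereas in bone marrow the intervals overlap.

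In spleen the exon and intron differences were of unequal size. This was tested directly on the intron per exon count of each gene divided by that of the alpha genes, a test added after the values were seen. For Hbb-bs the spleen quotient averaged 0.417 ± 0.0432 over WT libraries against 0.315 ± 0.0471 over th3/+ libraries (SD, n = 5 each), a log2 difference of -0.41 (95% interval -0.68 to -0.12, exact permutation test, adjusted p = 0.0317 over 4 tests). For Hbb-bt it was 0.591 ± 0.0879 and 0.431 ± 0.0306, a log2 difference of -0.45 (-0.67 to -0.18, exact permutation test, adjusted p = 0.0317). In bone marrow the differences were 0.20 (-0.25 to 0.64, adjusted p = 0.370) for Hbb-bs and 0.08 (-0.26 to 0.41, adjusted p = 0.571) for Hbb-bt in the exact tests. Of the 5 th3/+ spleen libraries, 4 lay below all WT libraries for Hbb-bs and 5 for Hbb-bt. The Hbb-bs call ended when any of 7 of the 10 spleen libraries was left out, at -0.48 to -0.36 with adjusted p up to 0.0635. The Hbb-bt call held in each of those exact tests only with the other tests kept at their p from all libraries. Without WT spleen libraries 4 and 5 the differences were -0.36 for Hbb-bs (exact test, adjusted p = 0.107) and -0.35 for Hbb-bt (adjusted p = 0.0357). The Hbb-bt value there still used the Hbb-bs p from all libraries. With the tests of both genes redone without those libraries, the Hbb-bt adjusted p does not stay under 0.05. Alpha intron counts themselves were 0.1001% ± 0.0466 of alpha exon counts in WT spleen and 0.139% ± 0.0100 in th3/+ spleen. WT spleen libraries 1, 2 and 3 had 0.146%, 0.106% and 0.144%, and the th3/+ spleen libraries ran from 0.126% to 0.150%. Against alpha exon counts, edgeR called Hba-a1 and Hba-a2 introns higher in th3/+ spleen (0.80 and 0.85, adjusted p = 0.0181 and 0.00977). Alpha introns given to neither gene were not called there (0.41, adjusted p = 0.169). They were most of the alpha introns, with a mean of 9017 counts in th3/+ spleen against 1198 for Hba-a1 and 847 for Hba-a2. These alpha intron tests include WT spleen libraries 4 and 5 and are not given without them. In bone marrow no alpha introns were called (edgeR, adjusted p of at least 0.0531). How much of the quotient differences came from alpha was not tested.

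Intron counts of the single pair were a small fraction of its exon counts. In WT bone marrow Hbb-bs intron counts were 0.0528%, 0.0591%, 0.0745%, 0.0674% and 0.0642% of its exon counts, and in th3/+ bone marrow 0.0376%, 0.0559%, 0.0428%, 0.0493% and 0.0756%. WT spleen libraries had 0.0510%, 0.0484%, 0.0580%, 0.0241% and 0.0216%, and in th3/+ spleen 0.0349%, 0.0426%, 0.0388%, 0.0472% and 0.0571%. The genotypes overlapped in both tissues, and the lowest values were those of WT spleen libraries 4 and 5. The log2 difference between th3/+ and WT was -0.32 (95% interval -0.77 to 0.16, adjusted p = 0.200) in bone marrow and 0.21 (-0.50 to 1.04, adjusted p = 0.598) in spleen by exact permutation tests.

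Over uniquely assigned counts, Hbb-bt carried more intron counts per exon count than Hbb-bs in all 20 single-haplotype libraries, 1.20 to 1.77 times as many. Its values were 0.0852%, 0.0820%, 0.112%, 0.0949% and 0.114% in WT bone marrow and 0.0562%, 0.0755%, 0.0636%, 0.0709% and 0.0971% in th3/+ bone marrow. They were 0.0685%, 0.0651%, 0.0832%, 0.0384% and 0.0295% in WT spleen and 0.0575%, 0.0633%, 0.0531%, 0.0567% and 0.0697% in th3/+ spleen. In bone marrow 4 of 5 th3/+ libraries were under the whole WT range. The difference there, -0.44 (95% interval -0.82 to -0.04), had p = 0.0397 in the exact permutation test and did not pass after adjustment (0.0794). In spleen it was 0.17 (-0.42 to 0.91, exact permutation test, adjusted p = 0.598). Without WT spleen libraries 4 and 5 the spleen differences turned, to -0.27 for Hbb-bs and -0.26 for Hbb-bt (exact tests of 5 against 3, adjusted p = 0.188 and 0.111). Within the letter series of the th3/+ mice, with 1 WT mouse and no test, they turned to -0.42 and -0.48.

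**Figure D3:**
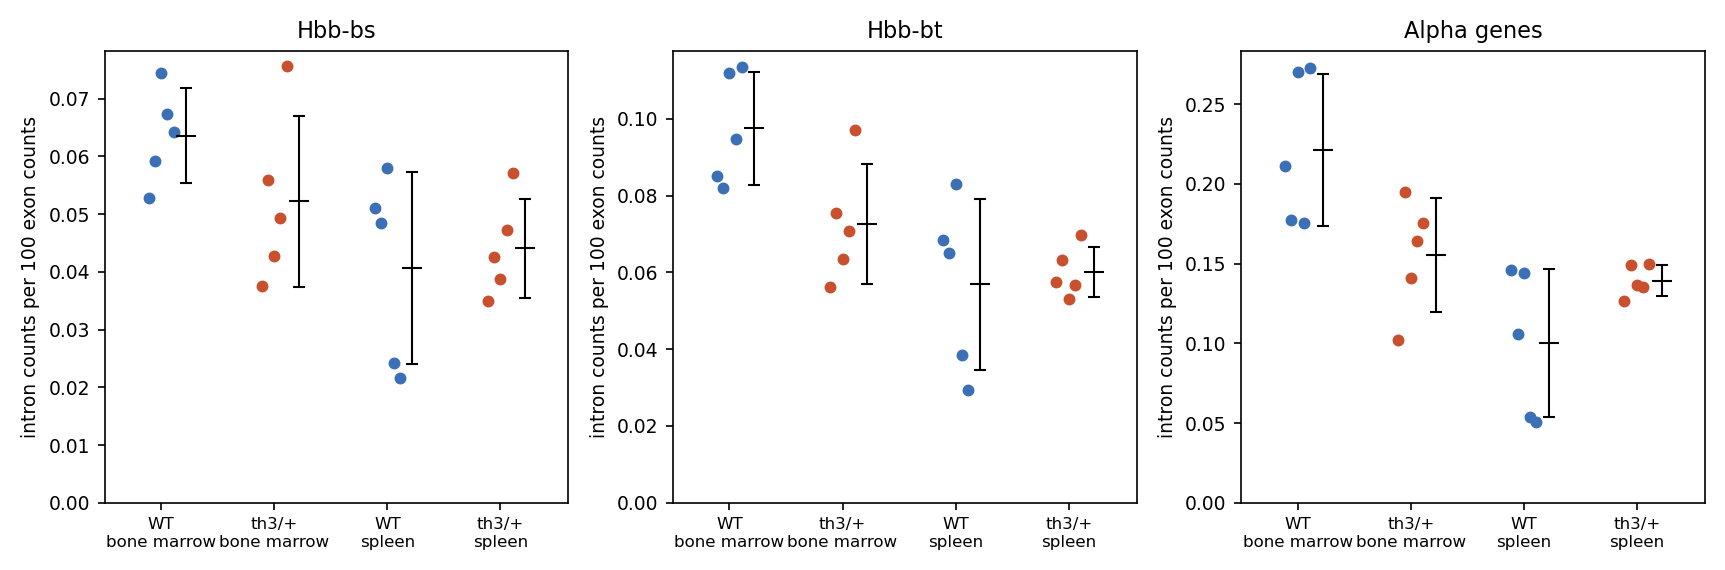
Intron counts per 100 exon counts of Hbb-bs, Hbb-bt and the alpha genes, with 1 point per library and the mean ± SD of each group of 5 (the vertical scales differ). WT bone marrow has the highest mean in each panel, and the 2 lowest WT spleen points are the same mice, 4 and 5, in all 3 panels.

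The share of Hbb-bt among the uniquely assigned counts of the pair was higher in introns than in exons in 20 of 20 single-haplotype libraries. The exon shares were 17.8%, 19.6%, 19.9%, 20.2% and 17.2% in WT bone marrow and 21.8%, 21.5%, 20.98%, 19.8% and 22.3% in th3/+ bone marrow. The spleen shares were 20.3%, 20.8%, 20.7%, 19.3% and 19.97% in WT and 20.5%, 21.8%, 20.5%, 21.2% and 21.3% in th3/+. Over all these libraries the exon share stayed between 17.2% and 22.3%. With unique exon counts divided by full transcript length, Hbb-bt made up 17.3% ± 1.25 of the pair in WT bone marrow and 19.4% ± 0.882 in th3/+ bone marrow. It made up 18.5% ± 0.567 in WT spleen and 19.2% ± 0.516 in th3/+ spleen (SD, n = 5 each). Unique Hbb-bs counts per base were thus the higher in all 4 groups. Shared reads were left out, and the lengths include sequence that both genes hold, so these are not counts per assignable base. The Hbb-bt length is that of GENCODE, whose start lies upstream of the RefSeq start and gives a 5 prime UTR of 127 bases, against 53 in Hbb-bs.

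The Hbb-bt share of intron counts was 25.9%, 25.2%, 27.2%, 26.2% and 26.9% in WT bone marrow and 29.4%, 27.0%, 28.3%, 26.2% and 26.9% in th3/+ bone marrow. In spleen it was 25.5%, 26.1%, 27.2%, 27.6% and 25.4% in WT and 29.8%, 29.2%, 26.1%, 24.4% and 24.8% in th3/+. The lowest intron share, 24.4%, was above the highest exon share, 22.3%. Averaged over the tissues of a mouse, the log2 odds of Hbb-bt in exons minus those in introns were -0.52 (95% interval -0.59 to -0.44), below 0 in 10 of 10 mice. The exact sign-flip test gave p = 0.00195, the smallest that 10 mice allow. With exon and intron counts divided by full annotated length, not by the part that tells the genes apart, the difference was -0.67. That change rests mostly on the longer GENCODE transcript of Hbb-bt, and lengths from its RefSeq start were not tried. This direction holds for uniquely assigned counts and depends on which gene the shared reads belong to. With every shared exon read given to Hbb-bt, the exon share was 30.8% to 35.6% and the difference turned to 0.47, above 0 in 10 of 10 mice. With the shared intron reads given to Hbb-bt as well it was -0.02 (exact sign-flip test, p = 0.445), and with the shared exon and intron reads given to Hbb-bs it was -0.64.

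**Figure D4:**
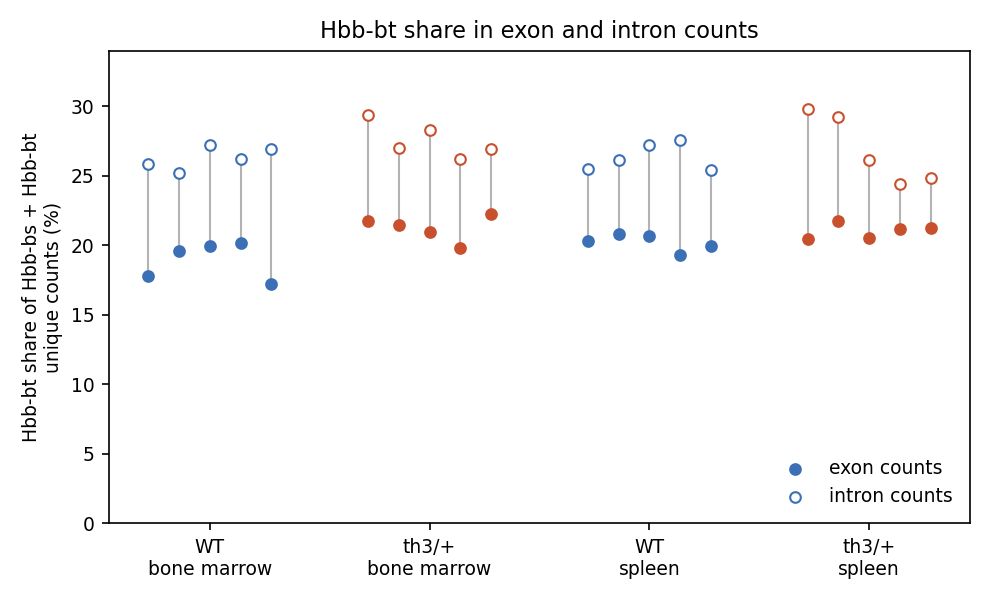
Hbb-bt share of the uniquely assigned Hbb-bs and Hbb-bt counts in exons (filled) and introns (open), with a line joining the pair of values of each library. The open point is above the filled point in all 20 libraries, and the intron shares span 24.4% to 29.8%.

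Between genotypes the Hbb-bt share differed less. WT bone marrow averaged an exon share of 18.9% ± 1.34 against 21.3% ± 0.944 with th3/+ (SD, n = 5 each), and 4 of 5 th3/+ libraries lay above all WT libraries. The log2 odds differed by 0.21 (95% interval 0.05 to 0.40), with p = 0.0238 in the exact permutation test and 0.0556 after adjustment over 14 tests, so the difference did not pass. In spleen the shares were 20.2% ± 0.608 and 21.04% ± 0.552, a difference of 0.07 (-0.01 to 0.16, exact permutation test, adjusted p = 0.111). Intron shares averaged 26.3% ± 0.803 (WT) against 27.6% ± 1.26 (th3/+) in bone marrow, and 26.4% ± 0.992 against 26.9% ± 2.49 in spleen (exact tests, adjusted p = 0.173 and 0.698). Without WT spleen libraries 4 and 5 the spleen intron share differed by 0.04 in log2 odds (exact test of 5 against 3, adjusted p = 0.696). Within the letter series of the th3/+ mice, where 1 WT mouse allows no test, the exon share differed by 0.12 in bone marrow and 0.03 in spleen, and the spleen intron share turned to -0.03 from 0.03. With every shared exon read given to Hbb-bt the exon share differed by 0.17 in bone marrow (exact permutation test, adjusted p = 0.0444) and by -0.03 in spleen (adjusted p = 0.581).

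Reads shared by the pair bound how well the genes can be told apart. They made up 14.1% to 18.6% of the exon counts of the single pair and 7.997% to 11.6% of its intron counts. In bone marrow the exon values were 16.5%, 17.0%, 17.2%, 15.4% and 16.4% in WT and 17.5%, 17.5%, 17.6%, 17.0% and 17.1% in th3/+. The spleen libraries had 17.3%, 18.2%, 17.7%, 18.6% and 14.1% in WT and 17.8%, 14.6%, 15.2%, 14.9% and 15.6% in th3/+. The genotypes overlapped in both tissues. The log2 odds differed by 0.09 (95% interval 0.02 to 0.18, adjusted p = 0.0556) in bone marrow and by -0.16 (-0.36 to 0.09, adjusted p = 0.232) in spleen, by exact permutation tests, and neither passed. Without WT spleen library 5 the spleen difference was -0.24 (exact permutation test, adjusted p = 0.0635), and within the letter series of the th3/+ mice the bone marrow difference was 0.02, with no test.

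Each mouse gave both tissues, so tissues were compared within mice. Per alpha exon count, the difference of spleen from bone marrow over the 10 mice was not called, at -0.09 (95% interval -0.31 to 0.13, exact sign-flip test, adjusted p = 0.405) for Hbb-bs and -0.04 (-0.18 to 0.09, adjusted p = 0.502) for Hbb-bt. That average covered opposite sides. In WT mice both genes were lower in spleen in 5 of 5 mice, at -0.32 ± 0.159 for Hbb-bs and -0.20 ± 0.0998 for Hbb-bt on the log2 scale (SD, n = 5). In th3/+ mice spleen was higher in 3 of 5 mice for Hbb-bs, 0.13 ± 0.182, and in 5 of 5 for Hbb-bt, 0.11 ± 0.0960. The tissue effect differed between the genotypes by 0.45 (95% interval 0.20 to 0.69) for Hbb-bs and 0.32 (0.16 to 0.47) for Hbb-bt, each with an adjusted p of 0.0397 over 5 tests in the exact permutation test over mice. The Hbb-bs call ended on leaving out any of 8 of the 10 mice (0.40 to 0.52, adjusted p from 0.0198 to 0.0595), and the Hbb-bt call held each time (0.28 to 0.34).

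Intron counts per exon count were lower in spleen than in bone marrow for both genes. The log2 difference was -0.49 (95% interval -0.90 to -0.15) for Hbb-bs, lower in 10 of 10 mice, and -0.56 (-0.999 to -0.22) for Hbb-bt, lower in 9 of 10 mice. The exact sign-flip tests gave an adjusted p of 0.00977 for each. Without WT mice 4 and 5 the differences shrank to -0.23 and -0.29, with an adjusted p of 0.0391 in both exact tests. The lower spleen mean was not particular to this pair. Alpha introns averaged 0.221% of alpha exon counts in WT bone marrow and 0.1001% in WT spleen, and 0.156% and 0.139% in th3/+ mice. The diffuse pair averaged 0.128% and 0.0881% in WT, and 0.101% and 0.0955% in th3/+ mice. These tissue differences were not tested. The tissue difference in the Hbb-bt exon share was not called (0.05, -0.04 to 0.15, adjusted p = 0.405 in the sign-flip test, higher in spleen in 6 of 10 mice).

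Against the diffuse pair, Hbb-bs and Hbb-bt together carried fewer intron counts per exon count, shared reads included. In WT bone marrow the single pair stood at 0.0642% ± 0.00807 and the diffuse pair at 0.128% ± 0.0156 (SD, n = 5 each), a fold of 0.502 (95% interval 0.416 to 0.614). In th3/+ bone marrow the values were 0.0519% ± 0.0133 and 0.101% ± 0.00912, a fold of 0.504 (0.386 to 0.663). In th3/+ spleen they were 0.0446% ± 0.00738 and 0.0955% ± 0.0179, a fold of 0.469 (0.359 to 0.599). No single-haplotype library reached the diffuse range in these 3 comparisons, with adjusted p = 0.0106 over 8 exact permutation tests. In WT spleen, where 2 libraries of each haplotype stood apart, the fold was 0.499 (0.215 to 1.27), with adjusted p = 0.0873 in the exact test. Without those libraries the WT spleen log2 difference was -1.19, where 3 against 3 allow no p under 0.100 in the exact test. The Hbb-bt share of introns was also lower than the Hbb-b2 share of the diffuse pair, for example 26.3% ± 0.803 against 33.2% ± 4.99 in WT bone marrow (adjusted p = 0.0181) and 26.9% ± 2.49 against 41.0% ± 4.41 in th3/+ spleen (adjusted p = 0.0106), by the same exact tests. The WT bone marrow call was lost in 3 of 10 cases of leaving out 1 library, with adjusted p up to 0.0635. In WT spleen the shares were 26.4% ± 0.992 and 47.0% ± 13.8, a log2 difference in odds of -1.31 (exact test, adjusted p = 0.0106), which fell to -0.73 and was not called (adjusted p = 0.100) without the libraries that stood apart. All diffuse-haplotype mice have codes of the letter series of the th3/+ mice. In WT, haplotype therefore largely coincides with the letter series, and these tests cannot tell them apart. Whether intron sequence or length moves these counts was not tested.

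In the 20 diffuse-haplotype libraries only traces were counted. Hbb-bs had 363 to 9253 exon counts and Hbb-bt 787 to 7217, against at least 3918454 and 1089791 in single-haplotype libraries. Per 1000000 beta exon counts this was 41.3 to 665.9 for Hbb-bs, with a median of 62.2, and 97.8 to 379.2 for Hbb-bt, with a median of 239.8. Hbb-bt exceeded Hbb-bs in 17 of these 20 libraries, the reverse of the order in single-haplotype libraries. Intron counts were 1 to 12 for Hbb-bs and 1 to 11 for Hbb-bt. No read was counted as shared by the pair in any of the 20, in exons or in introns. Likewise the 20 single-haplotype libraries had no exon or intron count in the Hbb-diffuse column, though they held 707 to 9036 Hbb-b1 exon counts. Whether these columns were filled at all for the other haplotype is not stated. How the counting assigned near-identical reads is not given in the sources used here, so these traces were read as no level of expression.

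**Figure D5:**
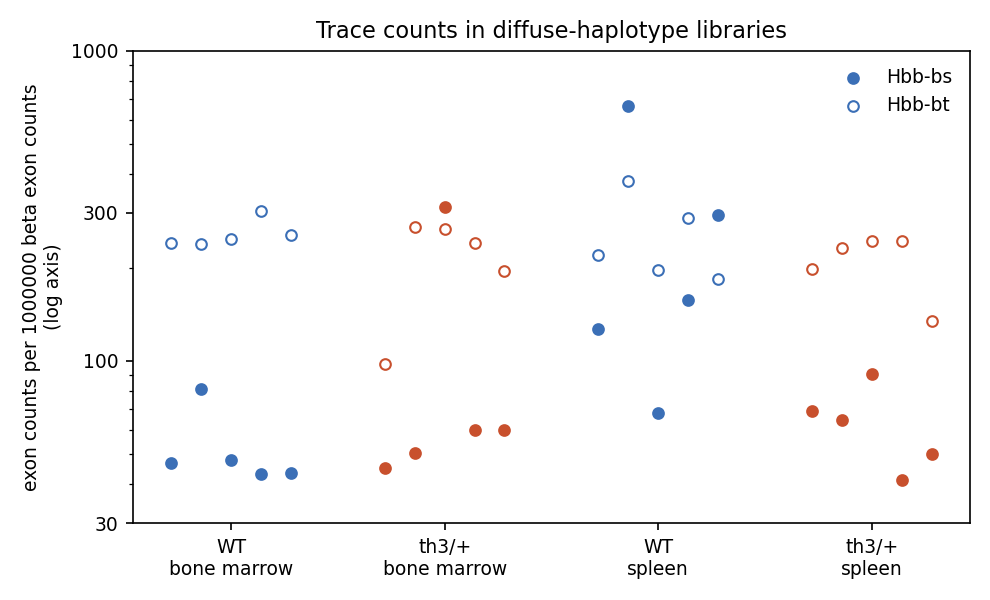
Hbb-bs (filled) and Hbb-bt (open) exon counts per 1000000 beta exon counts in the 20 diffuse-haplotype libraries, on a log axis, with 1 point of each kind per library. Hbb-bt is the higher in 17 of 20, and the highest point is Hbb-bs in WT spleen at 665.9.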

How the data were processed

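Per the file headers, the authors deposited raw read counts for exons and introns of each adult globin gene, 1 row per library, and the percent of intron over exon counts, which equalled the percent recomputed from the counts to within 9.71e-17. The submitters' processing notes name STAR 2.7.9a, STAR 2.5.3a, SAMtools, HTSeq and mm10, without roles, and the labels' protocols name a stranded total RNA kit. The strand setting and the handling of multiply mapped reads are not given in the sources used here. The columns Hbb-single and Ambiguous were taken to be reads that fit both genes of the single pair and of the alpha pair, a meaning the headers do not state. Another 40 columns of the table (names, blanks, other genes' ratios and derived sums) were not used. Row names give group and mouse code. The code pairs the tissues of 10 single-haplotype mice, and no number pairs mice between genotypes.

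edgeR's quasi-likelihood test (edgeR 4.0.16, R 4.3.3) was fitted to the 20 single-haplotype libraries with the alpha exon sum as library size and no TMM factors. The model had a mean for each group and no term for the mouse. Both libraries of a mouse thus counted as independent in its estimate of spread. It covered 16 features with at least 10 counts in at least 5 libraries. Benjamini-Hochberg adjustment ran over both tissues. Shares (log2 odds) and ratios (log2) were compared by two-sided exact permutation tests (252 splits of 5 against 5, numpy 2.4.6), with 95% intervals from test inversion, adjusted over 14 genotype, 8 haplotype and 5 tests for each of the tissue questions, at 0.05. Exact adjusted p-values are coarse, because few splits exist. DESeq2 1.42.0, other scalings, shared-read settings and left-out libraries were alternatives. The scripts were tested on simulated data. The members and lists were chosen with earlier results of these data known, and WT spleen libraries were called apart, after their values were seen, where alpha introns per exon fell under 0.6 of their group's median. Nothing says that litters or days separate the mice, so p-values measure the spread between these samples. In the single haplotype, genotype largely coincides with the letter series of the mouse codes, and the genotype tests cannot tell them apart. The same holds for haplotype among WT mice. Intervals cover no bias of read assignment.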

Additional observations from a re-analysis of the deposited data

Results flagged for a closer look

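The shared reads of the single pair took 14.1% of its exon counts in the spleen library of WT mouse 5, which stood apart from the other 4 WT spleen libraries (17.3% or more). That mouse is 1 of the 2 WT mice with low spleen introns. Among the traces in diffuse-haplotype libraries, Hbb-bs reached 3262 exon counts in th3/+ bone marrow library 3, where the next library had 762, and 9253 in WT spleen library 2, where the next had 3320. These 3 flags came from 44 groups of values, and chance flags about 1 in 20.

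The difference between spleen and bone marrow in counts per alpha exon count was unlike in the genotypes, by 0.45 on the log2 scale for Hbb-bs and 0.32 for Hbb-bt (exact permutation test over mice, adjusted p = 0.0397 for each). Over the same mice the difference in intron per exon counts was not called, at 0.53 (95% interval -0.10 to 1.42) for Hbb-bs and 0.61 (-0.04 to 1.51) for Hbb-bt. For spleen minus bone marrow, WT mice ran from -1.57 to -0.05 for Hbb-bs and from -1.95 to -0.31 for Hbb-bt. The th3/+ mice ran from -0.41 to -0.06 and from -0.48 to 0.03. The lowest WT values were those of mice 4 and 5, whose spleen introns stood apart, so these differences rest largely on them.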

How the results depend on the processing

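Of 526 recomputed values with a test, over 41 results, 483 kept their direction and side of the threshold. Another 18 values, within the letter series of the th3/+ mice, have no test, and 3 of them turned in sign, all in spleen: -0.42 and -0.48 for Hbb-bs and Hbb-bt intron per exon counts and -0.03 for the Hbb-bt intron share. Giving the shared exon reads to Hbb-bt reversed the Hbb-bt exon against intron share (0.47) and its spleen exon share between genotypes (-0.034), and made that of bone marrow called (0.17). Giving it the shared intron reads too ended the exon against intron call (-0.024). Scaling by TMM factors ended the calls of Hbb-bs (-0.33 in bone marrow, -0.27 in spleen) and of Hbb-bt (-0.13 and -0.18) per alpha exon count, and fitting all 40 libraries ended that of Hbb-bs in spleen (-0.76, adjusted p = 0.133). DESeq2 with its own size factors kept all 4 (-0.50, -0.42, -0.30 and -0.34). Alpha exon counts as the denominator of intron counts gave -1.53 and -0.55 for Hbb-bs and -1.44 and -0.51 for Hbb-bt, no longer called (adjusted p = 0.0556 in marrow, 0.222 in spleen), although edgeR called these same counts. In marrow the genotypes did not overlap in these ratios, and the exact p before adjustment was the smallest possible. Without the WT spleen libraries that stood apart, the spleen differences were -1.10 and -1.06 per alpha intron count (adjusted p = 0.0556), -0.27 and -0.26, both reversed, in intron per exon counts, -0.36 in the Hbb-bs quotient to alpha (adjusted p = 0.107), and -0.73 in the single against diffuse intron share in WT spleen (adjusted p = 0.100). The Hbb-bt quotient to alpha stayed called there only with the other tests kept at their p from all libraries. In these cases the cause was not tested, except that fewer libraries raise the smallest exact p.

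Leaving out 1 library or mouse at a time changed 24 of 410 values. The ranges were 0.060 to 0.108 for the shared reads, 0.17 to 0.24 for the Hbb-bt exon share and -0.55 to -0.35 for Hbb-bt intron per exon counts, all in bone marrow, each called in 1 case. They were -0.039 to 0.335 for Hbb-bt intron per exon counts in spleen, reversed to -0.039 without WT library 5, and -0.018 to 0.079 for the Hbb-bt intron share in spleen, reversed to -0.018 without th3/+ library 1 and to -0.0089 without th3/+ library 2. Further ranges with lost calls were 0.40 to 0.52 for the Hbb-bs tissue effect between genotypes, -0.57 to -0.38 for the second-gene intron share in WT bone marrow and -0.48 to -0.36 for the Hbb-bs quotient to alpha in spleen.

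No paired analysis was possible because table rows carry no replicate numbers that join mice of different genotypes or haplotypes, so the planned block fits of those comparisons were not run. The tissues were paired by mouse. With no replicate block the spleen differences in intron per exon counts stayed called (-0.49 and -0.56, adjusted p = 0.0411 and 0.0174).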
